A study of Mus musculus with 2 samples.

Results

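Bidirectional promoters of protein-coding genes were examined for CTCF binding in mouse embryonic stem cells (ESCs). The annotation of chromosomes 1 to 19 (GENCODE M1, mm9) holds 789 pairs of protein-coding genes on opposite strands whose 5′ ends face away from each other with at most 1000 bp between them. All were kept, whether bound or not. They comprise 1562 genes, or 7.29% of the 21418 protein-coding genes of these chromosomes, and 16 genes belong to more than 1 pair. The region of a pair ran from 500 bp inside the gene on the minus strand, across both starts, to 500 bp inside the gene on the plus strand. The gap between the starts was 1 to 987 bp, with a median of 141 bp (quartiles 73.0 and 271), and 622 pairs (78.8%) were at most 300 bp apart. The regions had a median width of 1142 bp. For comparison, 18180 one-sided promoters were taken, which have no annotated start on the opposite strand within 1000 bp. Each had a region of 1142 bp, from 500 bp inside the gene to 500 bp plus the median gap upstream of the start. The outer 500 bp upstream take the place of the second gene of a pair, so the regions of both classes differ in content. The part of this in the differences between the classes was not tested. A further 425 promoters shared by a protein-coding and a noncoding gene bring the promoters counted to 19394.

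The cells were R1/E mouse ESCs with a stably integrated bacterial artificial chromosome (BAC) from which LAP-tagged CTCF, a fusion that includes GFP, is expressed in addition to the cells' own protein. Chromatin was fixed with 1% formaldehyde, sonicated to about 500 bp and precipitated with an antibody to GFP or with control IgG. A single library was made from each precipitation, so there is no replicate, and both come from the same tagged line. The label of the control also calls it input DNA, in which case the ratios below would be ratios to input. Depth was 8391191 tags for CTCF and 7988889 for IgG, and tags were counted at the estimated fragment centre. All intervals below are 95% intervals. Those of tag ratios cover counting error only. Those of shares and of their differences treat regions or summits as independent draws. None covers variation between cultures.

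A bidirectional promoter serves a pair of divergently transcribed genes from a single stretch of DNA, which in mammals is typically rich in CpG dinucleotides. Such pairs are common among housekeeping genes, for example those of DNA repair, mitochondria and histones. CTCF is a zinc finger protein that binds a long, well-defined DNA motif, insulates neighbouring regulatory domains and anchors chromatin loops together with cohesin.

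The motif was modelled as a matrix of 19 positions built from the CTCF sequences of the study's motif table. Its most frequent bases read NNNCCANNAGNNGGCNNNN, where N marks a position at which no base reaches 60% of these sequences. Both strands were searched, with a match defined by a matrix p-value of at most 1e-05. Of the bidirectional regions, 139 (17.6%, Wilson interval 15.1 to 20.4) held a match, against 19.3% (18.7 to 19.9) of the one-sided regions. At 5 pairs the best match near the summit of a CTCF peak lies between the starts or across one of them, and the mm9 sequence is shown because here a single site separates both genes. Capitals mark the motif and the flanking letters stay within the gap, except at Atp6v1d/Eif2s1, where the motif crosses the annotated start of Eif2s1.
Nae1/Car7 (chr8:107058538-107058599, plus strand): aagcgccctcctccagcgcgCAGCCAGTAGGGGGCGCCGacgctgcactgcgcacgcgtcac
Tas1r1/Nol9 (chr4:151413275-151413429, plus strand): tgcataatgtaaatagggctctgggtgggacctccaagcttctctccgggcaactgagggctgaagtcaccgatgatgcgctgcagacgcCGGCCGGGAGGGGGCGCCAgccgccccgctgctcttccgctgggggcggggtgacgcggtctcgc
Abhd14a/Abhd14b (chr9:106350823-106350970, plus strand): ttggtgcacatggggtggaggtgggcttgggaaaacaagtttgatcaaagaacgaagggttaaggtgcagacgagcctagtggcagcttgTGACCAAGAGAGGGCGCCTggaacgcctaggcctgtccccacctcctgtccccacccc
Nop14/Grk4 (chr5:35002913-35003027, minus strand): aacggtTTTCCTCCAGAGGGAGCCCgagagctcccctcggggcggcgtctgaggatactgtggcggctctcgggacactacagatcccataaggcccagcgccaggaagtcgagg
Atp6v1d/Eif2s1 (chr12:79962792-79962820, minus strand): ttagtCAACCAAGAGAGGGCGCTGtgacg

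At the remaining pairs with a motif near the summit, the motif lies inside a gene of the pair. The sites of 7 such pairs are shown with 5 bases on either side, since these pairs carry some of the strongest peaks or the peaks at mitochondrial genes described below. The annotation places the first in an intron of Ints7, the next in an intron of Zswim7, and those of Tctn3/Entpd1 and Hjurp/Trpm8 in a UTR of Entpd1 and a noncoding exon of Trpm8. The remaining sites lie in introns of Dnajc12 and Wdr4 and in a coding exon of Mrps18b.
Dtl/Ints7 (chr1:193400031-193400059, plus strand): gccttTGACCACTTGGGGGCACAGtctct
Zswim7/Ttc19 (chr11:62094358-62094386, minus strand): ccctcTGGCCTGTAGAGGTCGCCCtatgc
Tctn3/Entpd1 (chr19:40686896-40686924, plus strand): tgatcCCGCCGCTAGATGGCAGCTggcag
Hjurp/Trpm8 (chr1:90174270-90174298, minus strand): cccagAAGCCTCTAGGGGACGCGGgagtg
Sirt1/Dnajc12 (chr10:62845636-62845664, minus strand): actcaGCACCTCTAGGTGGCGTCCaacac
Wdr4/Ndufv3 (chr17:31656456-31656484, plus strand): ttcagACACCAGAAGAGGGCATCAgatct
Mrps18b/Ppp1r10 (chr17:36053283-36053311, plus strand): agcgtGTGCCGCAAGGGGGCAGCCatctt

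The highest scoring motifs at pairs without a deposited peak are given for contrast. They lie in a UTR of Tprkb and of Mmgt2, in introns of Hspb11 and 4930415O20Rik, and outside genes at Exosc8/Alg5 and Dram1/Gnptab.
Cml1/Tprkb (chr6:85865930-85865958, minus strand): gggcaTCGCCTGCAGGGGGCGCCCcggcg
BC046404/Mmgt2 (chr11:62462255-62462283, minus strand): cacagTGTCCGGCAGGGGGCGCTGcacca
Lrrc42/Hspb11 (chr4:106926379-106926407, plus strand): agcccCTGCCAGGAGAGGGCGGGGcgggg
Exosc8/Alg5 (chr3:54539386-54539414, plus strand): gggcaCGGCCAGGCGGGGGCGCTGcgggc
Dram1/Gnptab (chr10:87841858-87841886, plus strand): ccctcCGCCCTCTAGGTGGCGCTGgcgac
Ccnt1/4930415O20Rik (chr15:98401850-98401878, minus strand): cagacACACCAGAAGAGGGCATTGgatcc
The sites of Wdr4/Ndufv3 and Ccnt1/4930415O20Rik share the letters ACACCAGAAGAGGGCAT. Searched on both strands, these letters occur in no other bidirectional region (2 in all, 0.253%) and in 0.397% of all promoter regions counted.

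To ask how often these promoters are bound, the regions were overlapped with the CTCF peaks that the authors called with MACS, whose score is the p-value on a scale of -10 times its log10, with a lowest value of 50.0. A peak overlapped 53 of the 789 bidirectional promoters by at least 1 bp, or 6.72% (5.17 to 8.68), while the share over all promoter regions counted was 8.04%. Of the one-sided promoters 8.12% (7.73 to 8.52) overlapped a peak, and the difference of pairs minus one-sided promoters, -1.40 percentage points, has a Newcombe interval of -3.00 to 0.601, which includes 0. The share at coding and noncoding pairs was 7.06% (4.99 to 9.90). With a summit inside the region as the requirement the share of the pairs was 4.06%, and with only the peaks scoring 100 or more it was 4.18%. The 53 pairs fall into 32 with the summit inside the region and 21 that reach only the edge of a peak whose summit lies 3 to 1323 bp outside.

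Tag counts at single pairs were low in both libraries. The CTCF library had 0 to 58 tags per pair, with a median of 3 (quartiles 2 and 6), and the IgG library had 0 to 16 tags, with a median of 2 (1 and 3). No tag of either library fell in 25 pairs. Pairs with a summit inside had 9 to 58 CTCF tags with a median of 21, and pairs at the edge of a peak had 0 to 24 with a median of 10. The pairs without a peak had 0 to 28 CTCF tags, so the ranges overlap. Each region was also tested for CTCF over IgG by a two-sided exact binomial test with Benjamini-Hochberg adjustment over all 19394 regions, which compares these 2 libraries only. At an adjusted p below 0.05, 38 pairs (4.82%) were higher in the CTCF library, against 6.11% of all regions counted and 6.18% of the one-sided promoters. No pair was called higher in the IgG library, and only 13 of the 18180 one-sided promoters were. An unadjusted p below 0.05 in either direction was found at 95 of the 789 pairs and at 2252 of the 18180 one-sided promoters. Simulated regions took the real depth and the IgG counts of all promoters counted, with 50 regions raised at each fold. The test called 20.0% of those raised 5 times and 58.0% of those raised 10 times, so that a pair not called may still be bound. Pairs had fewer IgG tags per kb (1.76) than one-sided promoters (2.45), and pairs alone were not simulated.

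**Figure D1:**
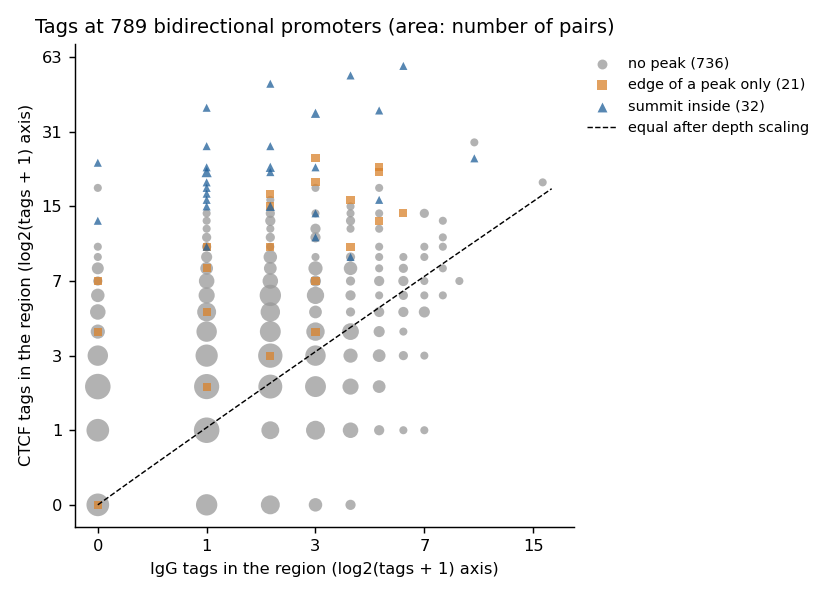
CTCF tags (vertical axis) against IgG tags (horizontal axis) in each of the 789 bidirectional regions, both on a log2(tags + 1) axis, with larger marks where several pairs coincide. Blue triangles are the 32 pairs with a CTCF summit inside, orange squares the 21 pairs at the edge of a peak and grey circles the 736 pairs without a peak, and the dashed line marks equal levels after scaling for depth.

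Among the 32 pairs with the summit inside, the strongest peaks fell at pairs with diverse functions. Higher scores were found at the edge of Plcd3/Acbd4 (538), which was named after its values were seen and had 4 CTCF and 3 IgG tags in its region, and of Wrap53/Trp53 (416), described below. At Dtl/Ints7 the CTCF library had 39 tags and the IgG library 1 (score 415, adjusted p of the exact test 4.20e-08). Dtl encodes a substrate receptor of a ubiquitin ligase that limits replication to once per cycle, and Ints7 encodes a subunit of the Integrator complex. Its summit lies 421 bp inside Ints7, 18 bp from the site shown above, and the region holds a further motif of a higher score (22.62) with 27 CTCF tags within 150 bp. Atp6v1d/Eif2s1, a subunit of the vacuolar proton pump and the alpha subunit of translation initiation factor eIF2, had 49 CTCF tags and 2 IgG tags (score 396). Of these, 44 CTCF and 0 IgG tags lie within 150 bp of the motif at the start of Eif2s1. Hjurp/Trpm8, the chaperone of the centromeric histone CENP-A and a cold-sensing ion channel, had 58 CTCF and 6 IgG tags (score 356). Its starts are 28 bp apart, and the summit falls on the motif itself, 48 bp inside Trpm8.

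Pdzd7/Sfxn3 (chr19:45120604-45122591) has the widest gap of all pairs (987 bp) and had 53 CTCF tags and 4 IgG tags (score 247, adjusted p of the exact test 7.08e-09). Its summit lies between the starts, 99 bp from that of Sfxn3, and no motif was found within 150 bp of it. The pair just beyond the limit, Nacc1/Trmt1 with 1004 bp, had 20 CTCF and 8 IgG tags and no peak. Bysl/Med20 (chr17:47747941-47749038), a factor of small ribosomal subunit assembly and a subunit of Mediator, is listed as 2 pairs because Med20 has 2 gene models, and had 37 CTCF tags and 3 IgG tags (score 239). Its summit lies in a UTR of Bysl, with a motif only at the looser threshold of 1e-04. At Sirt1/Dnajc12, a protein deacetylase and a J-domain cochaperone, the CTCF library had 24 tags and the IgG library 10 (score 271). This excess did not pass the test over the whole region (adjusted p of the exact test 0.254). Within 150 bp of the motif near the edge of the region lie 23 CTCF tags and 0 IgG tags. That window reaches beyond the region, so these tags are not all among those tested.

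The remaining pairs among the highest scores had 19 to 27 CTCF tags against 1 IgG tag each. Zswim7/Ttc19 (score 189), with 21 CTCF tags, joins a factor of homologous recombination and an assembly factor of respiratory complex III. Pdxdc1/Mpv17l (score 178) also had 21 CTCF tags, and its summit lies 448 bp inside Mpv17l without a motif at the main threshold. Tctn3/Entpd1, with 27 CTCF tags, and Ift80/Smc4, with 19, tie at a score of 165. Tctn3 and Ift80 act in the primary cilium, Entpd1 degrades extracellular ATP, and Smc4 is a core subunit of condensin. The summit of Tctn3/Entpd1 lies 47 bp inside Entpd1 and 7 bp from a motif, while that of Ift80/Smc4 lies in an intron of Ift80 with no motif within 150 bp.

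Binding between the starts was not the rule. Of 32 summits counted over pairs (31 peaks, since Bysl/Med20 counts double), 7 lay between the starts (21.9%, 11 to 38.8), 13 inside the gene on the minus strand and 12 inside the gene on the plus strand. The gap makes up 19.2% of the length of these regions, so the share of summits between the starts is close to the share of sequence there. The median distance to the nearest start was 224 bp (quartiles 90.0 and 366). By annotation, 12 of the 31 peaks had their summit in an intron, 7 in a UTR, 4 in a coding exon, 1 in a noncoding exon and 7 outside genes.

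**Figure D2:**
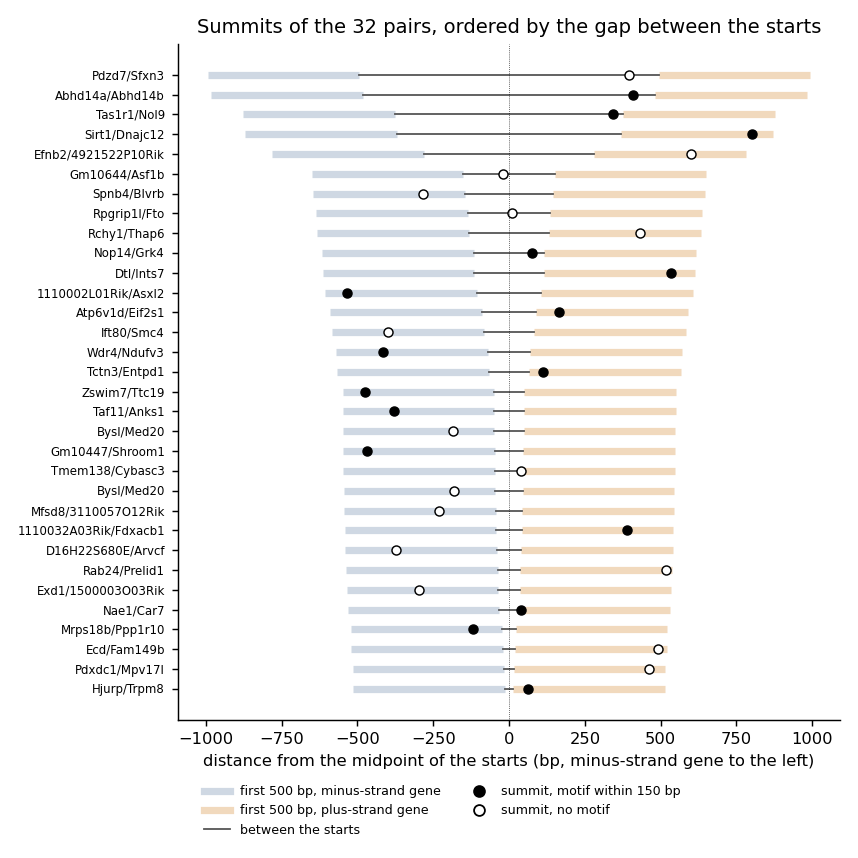
Each row is 1 of the 32 pairs with a summit, ordered by gap, with the distance from the midpoint of the starts in bp on the horizontal axis. Bars show the first 500 bp of each gene, thin lines the gap and circles the summit, filled where a motif lies within 150 bp. Of the 32 summits, 7 lie on the thin line.

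A motif lay within 150 bp of 16 of the 32 summits (50.0%, 33.6 to 66.4), compared with 54.4% (51.3 to 57.3) of 1056 summits in one-sided regions and with 2 of 64 positions 2000 bp away from the same summits (3.12%). The looser threshold of 1e-04 gave 71.9% and a window of 50 bp gave 25%. At Nae1/Car7, which joins a subunit of the NEDD8-activating enzyme and a carbonic anhydrase, the motif had the highest score of all pairs (23.97) and fills part of a gap of 63 bp. The CTCF library had 16 tags in this region and the IgG library 1, and 13 CTCF tags lie within 150 bp of the motif. Tas1r1/Nol9, a taste receptor subunit and a kinase of ribosomal RNA processing, had 27 CTCF and 2 IgG tags, with the summit 32 bp from the start of Nol9. Abhd14a/Abhd14b had 38 CTCF and 5 IgG tags, and Nop14/Grk4, a factor of ribosome assembly and a receptor kinase, had 16 CTCF and 5 IgG tags (adjusted p of the exact test 0.265). Summits in pairs had a median score of 122 against 108 in one-sided promoters.

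Most bidirectional promoters with a motif overlapped no peak. Among the 139 pairs with a motif, 22 overlapped a peak (15.8%, 10.7 to 22.8), against 23.8% (22.4 to 25.2) of the one-sided promoters with a motif. Within 150 bp of the best motif of the region, which need not lie near the summit, the 22 pairs had 275 CTCF and 11 IgG tags in all, a depth-scaled ratio of 23.8 (13.1 to 48.2). The 117 pairs without a peak had 199 CTCF and 60 IgG tags there, a ratio of 3.16 (2.35 to 4.29), and 44 of them had no CTCF tag within this distance. Both groups were chosen by peaks called from these same libraries, so both ratios are descriptions only. Of the sites shown for contrast, that of Cml1/Tprkb (score 20.98) had 4 CTCF tags, that of Exosc8/Alg5 had 7 and that of Lrrc42/Hspb11 had 0, all against 0 IgG tags. The median motif score was 15.9 in the pairs with a peak and 14.6 in those without. A CpG lay in the best motif of 77.3% of the former and 76.9% of the latter.

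Base composition differed between the classes of promoter, since 659 pairs (83.5%) but 36.4% of the one-sided promoters were CpG-rich, defined as above 50% G+C with an observed over expected CpG ratio above 0.6. Median G+C was 59.4% in pairs and 52.7% in one-sided regions, and the median CpG ratio was 0.766 and 0.452. Among CpG-rich promoters, 6.83% of the pairs (5.14 to 9.02) and 11.4% of the 6620 one-sided promoters (10.7 to 12.2) overlapped a peak. The difference of pairs minus one-sided promoters was -4.58 percentage points, and its Newcombe interval, -6.44 to -2.27, excludes 0. This difference, and the 1 below for CpG-rich promoters with a motif, were added after the data were seen. Among promoters that were not CpG-rich the shares were 6.15% of 130 pairs and 6.24% of 11560 one-sided promoters, a difference of -0.0832 points (-3.12 to 5.45) whose interval includes 0. With only the peaks scoring 100 or more the difference among CpG-rich promoters was -1.90 points (-3.35 to 0.0325) and its interval includes 0. Among CpG-rich promoters with a motif, the shares were 14.4% of 118 pairs (9.19 to 21.9) and 25.7% of 1661 one-sided promoters (23.7 to 27.9). That difference of -11.3 points (-16.9 to -3.57) was -6.16 points (-10.4 to 0.470) with only the peaks scoring 100 or more and -7.27 points (-12.7 to 0.302) with a summit inside. It was -7.93 points (-14.8 to 1.46) with pairs at most 300 bp apart. Without a motif, CpG-rich pairs had 5.18% and one-sided promoters 6.61%. CpG-rich regions held a motif in 17.9% of the pairs and 25.1% of the one-sided promoters, and the best motif anywhere in a region that overlaps a peak scored a median of 15.86 in all pairs and 17.24 in all one-sided promoters. Their part in the difference was not tested.

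**Figure D3:**
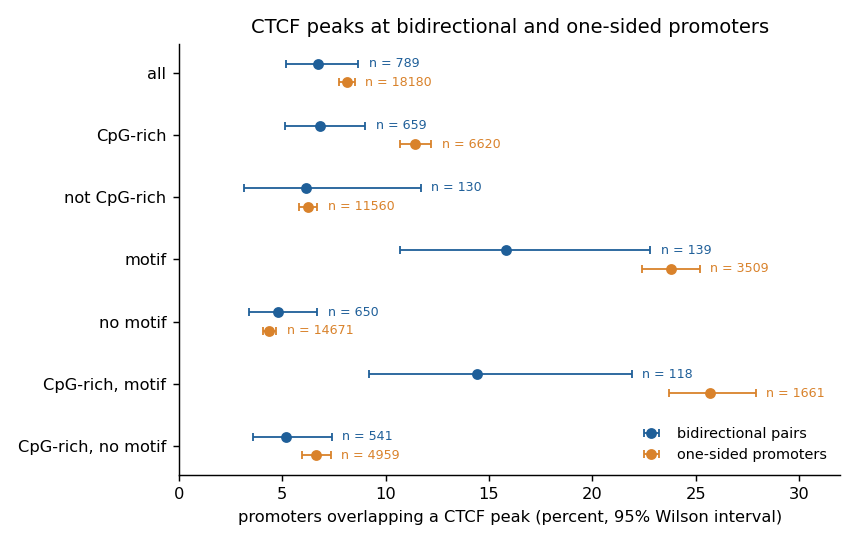
Share of promoters overlapping a CTCF peak, in percent with 95% Wilson intervals, for bidirectional pairs (blue) and one-sided promoters (orange), over all regions and by CpG content and motif. The intervals overlap for all promoters and do not overlap for CpG-rich promoters (6.83% against 11.4%) or for CpG-rich promoters with a motif (14.4% against 25.7%).

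Summed over all 789 pairs, the CTCF library had 3931 tags and the IgG library 1678, which after scaling for depth is a ratio of 2.23 (exact, 2.11 to 2.36), against 1.78 (1.76 to 1.80) in one-sided promoters. Among CpG-rich promoters the order was the opposite, with 2.30 (2.16 to 2.46) in pairs and 2.72 (2.66 to 2.78) in one-sided promoters. The 53 pairs with a peak had 1003 CTCF and 128 IgG tags, a ratio of 7.46 (6.20 to 9.04). Peaks were called from these same 2 libraries, so a high ratio follows from the selection and is a description only. The 736 pairs without a peak had 2928 and 1550 tags, a ratio of 1.80 (1.69 to 1.91). This ratio goes with a low level of the control. Pairs without a peak had 3.29 CTCF tags per kb, where the mean of the genome is 3.30, but 1.74 IgG tags per kb, where the mean of the genome is 3.13. Over all pairs the IgG level was 0.562 times that of the genome and 0.715 times that of one-sided promoters (exact interval 0.681 to 0.751). Among CpG-rich promoters the IgG level of pairs was 0.981 times that of one-sided promoters (0.925 to 1.04).

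Above 50% G+C the intervals of both classes overlap, and at 40 to 50% they do not. Among promoters without a peak and with 50 to 60% G+C, the CTCF over IgG ratio was 1.66 (1.53 to 1.79) in pairs and 1.61 (1.58 to 1.64) in one-sided promoters. With 60 to 70% G+C it was 2.13 (1.91 to 2.38) and 2.05 (1.98 to 2.13). The 27 pairs of 40 to 50% G+C had a ratio of 1.58 (1.21 to 2.07) and the one-sided promoters of this range 1.06 (1.03 to 1.08). The part of G+C content in the ratios above 1 at promoters without a peak was not tested.

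**Figure D4:**
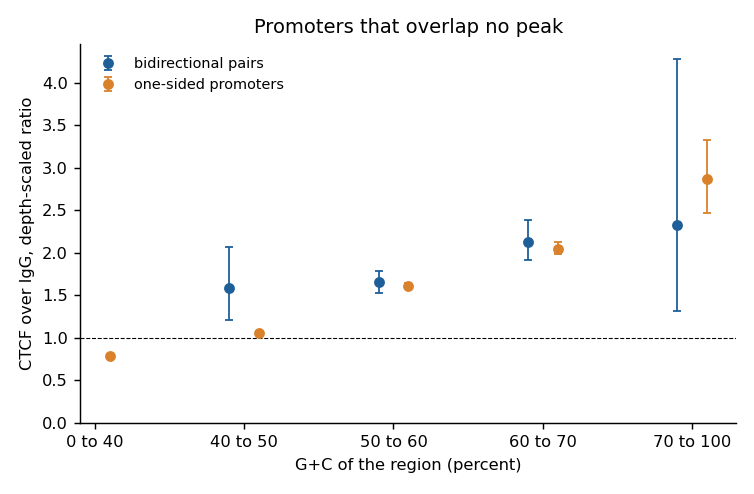
CTCF over IgG tags after scaling for depth (vertical axis, exact 95% intervals) in promoters that overlap no peak, by G+C of the region in percent, for bidirectional pairs (blue) and one-sided promoters (orange), with the dashed line at equal levels. The ratio is 1.66 in pairs and 1.61 in one-sided promoters at 50 to 60% G+C, and no point is drawn for pairs below 40%, where only 1 was found.

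Around the midpoint between the starts, both libraries dipped at pairs without a peak. In the 100 bp to the right of the midpoint, the CTCF library had 0.266 and the IgG library 0.180 tags per kb and pair, scaled to 1000000 tags. In the outermost 100 bp to the right, centred at 1950 bp, the values were 0.567 and 0.449. One-sided promoters without a peak dipped too, with 0.313 and 0.249 in the bin centred at 50 bp and 0.477 and 0.378 at 1950 bp. At the 53 pairs with a peak the CTCF level was higher than that of IgG in all bins drawn and showed no single maximum at the midpoint.

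**Figure D5:**
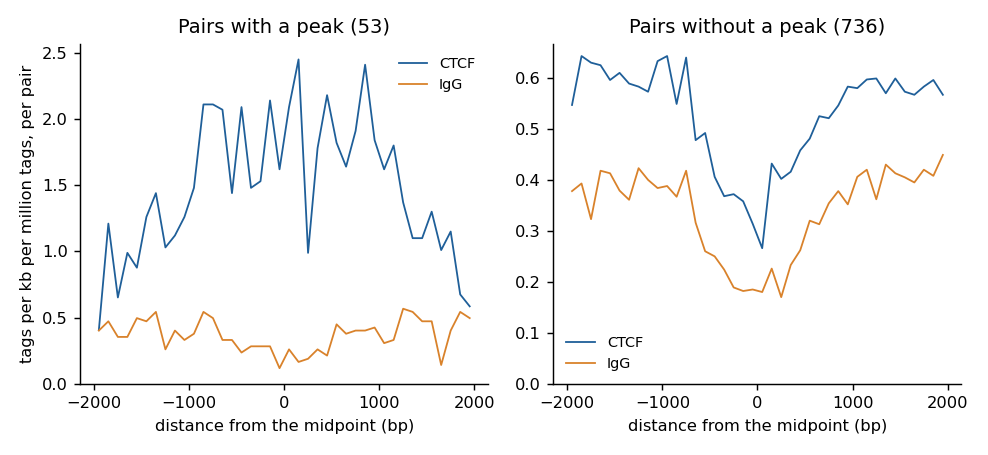
Mean tag level by distance from the midpoint of the starts in bins of 100 bp, in tags per kb and pair scaled to 1000000 tags of the library, for CTCF (blue) and IgG (orange), with the gene on the minus strand to the left. At pairs without a peak (right panel, with a smaller vertical range) both libraries are low near the midpoint, with 0.266 for CTCF and 0.180 for IgG in the bin just right of it.

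The share with a peak did not follow the gap in one direction. It was 9.26% (5.11 to 16.2) at 1 to 50 bp, 7.61% (4.59 to 12.4) at 51 to 100 bp, 3.20% (1.56 to 6.45) at 101 to 200 bp and 9.01% (4.97 to 15.8) at 201 to 300 bp. Pairs further apart had 6.98% (3.24 to 14.4) up to 500 bp and 7.41% (3.44 to 15.2) beyond, and these intervals all overlap. The regions widen with the gap, so pairs further apart have more sequence in which to meet a peak. In a fixed window of 1 kb the shares were 7.21% at 201 to 300 bp, 4.65% up to 500 bp and 4.94% beyond. The shares at smaller gaps were unchanged in this window, and again there was no single direction. Pairs without a peak had their nearest summit at a median of 13359 bp, and 21.5% (18.7 to 24.6) had one within 5000 bp, compared with 18081 bp and 17.7% (17.2 to 18.3) at one-sided promoters without a peak.

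By function, the groups of genes examined held 0 to 3 pairs with a peak each, too few to compare their shares. Of 40 pairs with a gene of DNA repair or replication, 1 overlapped a peak (2.50%), beside 6.72% of all pairs. This was Hscb/Chek2, a cochaperone of iron-sulfur cluster assembly and a checkpoint kinase, with 22 CTCF and 5 IgG tags (score 313, summit outside the region). Of the pairs without a peak, Brca1/Nbr1 had 4 CTCF and 4 IgG tags, and Palb2/Dctn5 had 3 and 4. Others had more CTCF than IgG tags, as Abhd12/Gins1 (13 and 2) and Dak/Ddb1 (8 and 1). Summed over this list, the depth-scaled ratio was 2.24 (exact, 1.71 to 2.97), beside 2.23 in all pairs. The list leaves out Dtl/Ints7 and Zswim7/Ttc19, described above, which have a peak, so the share depends on the choice of genes. Of 38 pairs with a gene of the mitochondrial ribosome or the respiratory chain, 3 overlapped a peak (7.89%), and Zswim7/Ttc19 is left out here too. Wdr4/Ndufv3, a subunit of a transfer RNA methyltransferase and a subunit of complex I, had 21 CTCF tags and 1 IgG tag. Mrps18b/Ppp1r10, a mitochondrial ribosomal protein and a regulator of a protein phosphatase, had 15 and 2 tags. Mrps12/Sars2, a mitochondrial ribosomal protein and the mitochondrial seryl-tRNA synthetase, had 24 and 3 tags, with the summit of its peak outside the region. It was also the only pair overlapping a peak among 7 with an aminoacyl-tRNA synthetase (14.3%, beside 6.72% of all pairs). None of the 8 pairs with a cytosolic ribosomal protein or of the 6 with a proteasome gene overlapped a peak, with 1 to 11 and 2 to 8 CTCF tags.

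The 14 pairs with a replication-dependent histone gene had 0 to 7 CTCF tags, and 2 of them (14.3%, beside 6.72% of all pairs) touched a peak with its summit outside the region. These were Hist1h2bl/Hist1h2ai with 4 CTCF tags and Hist1h2ag/Hist1h2bj with 7, both against 0 IgG tags. Hist1h2bq/Hist1h2ao and Hist1h2ap/Hist1h2br had no tag of either library, and these genes have near-identical copies elsewhere in the cluster, so their counts are uncertain. Of 23 pairs with a zinc finger gene 1 overlapped a peak (4.35%), Cct6b/Zfp830 with 3 CTCF and 2 IgG tags, which also carries a chaperonin gene. Of 15 pairs with a heat shock or chaperonin gene this pair and Sirt1/Dnajc12 overlapped a peak (13.3%, beside 6.72% of all pairs). Hspa1a/Hspa1l, the stress-inducible Hsp70 and a related gene, had 1 CTCF tag and 7 IgG tags, the lowest p for an excess of IgG among the pairs (0.0348 in the exact test, adjusted 0.306). Next in that order were Exoc8/Gm505 and Fam35a/Glud1, each with 0 CTCF and 4 IgG tags.

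Of 18 well-known bidirectional pairs looked for, 8 met the rule. Wrap53/Trp53 (chr11:69393257-69394361), the antisense partner of p53 and p53 itself, had 16 CTCF and 4 IgG tags at the edge of a peak with a score of 416 and was not called (adjusted p of the exact test 0.149). Mrps12/Sars2, described above, was the other pair with a peak, so that 2 of the 8 overlapped one, beside 6.72% of all pairs. Both pairs reach only the edge of a peak whose summit lies outside the region, and 8 pairs are too few to compare shares. The collagen IV pair Col4a4/Col4a3 had 1 CTCF and 3 IgG tags. Low counts were also seen at Atm/Npat (4 CTCF and 2 IgG tags), Mcm4/Prkdc (2 and 3) and Osgep/Apex1 (0 and 2), all with DNA repair or replication genes. Toe1/Mutyh, which carries a base excision repair glycosylase, had 8 and 2 tags. None of these well-known pairs without a peak was called.

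High CTCF counts were not confined to pairs with a peak. The highest without one was at E130303B06Rik/4933405L10Rik with 28 CTCF and 10 IgG tags, followed by Acd/Pard6a, a telomere protein and a polarity protein, with 19 and 16. Both lie on chromosome 8 from 108080001 to 108250000, a stretch of 170 kb around Ctcf in which the IgG library is at 5.50 times the median of the chromosome, and the BAC carries the Ctcf gene. Their IgG counts were among the 3 highest of all pairs, together with Sirt1/Dnajc12, and neither was called (adjusted p of the exact test 0.0810 and 1.00). Tirap/Srpr (chr9:35006990-35008260), an adaptor of Toll-like receptors and a subunit of the signal recognition particle receptor, had 18 CTCF and 0 IgG tags without a peak or a motif (adjusted p of the exact test 4.12e-04). Txndc9/Eif5b had 18 and 5 tags (0.141 in the same exact test). In all, 6 of the 736 pairs without a peak were called (0.815%), close to the 0.754% of one-sided promoters without a peak. Among these 6 pairs, chosen after their values were seen, were BC046404/Mmgt2 (10 CTCF and 0 IgG tags), Duox2/Duoxa2 (13 and 1), Foxa3/Sympk (14 and 1) and Gm10655/Tle3 (16 and 2).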

How the data were processed

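The authors deposited, for each of the 2 libraries, 1 line per aligned tag of 35 bp, each a raw count of 1 without normalization, and for CTCF the peaks with a MACS score and the summits with a signal, which is the pileup height in tags. Peaks were called against IgG with MACS 1.4 on mm9, per the labels. The aligner is not given in the sources used here, nor is the treatment of tags that map to several places. Neither file repeats a position on the same strand.

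From these files, tags were shifted 92 bp downstream, given an estimated fragment length of 184 bp, and counted in regions built from GENCODE M1, with sequence from NCBI m37 (mm9). The scripts ran under Python 3.11.15 with scipy 1.17.1, numpy 2.4.6, pysam 0.24.0, pandas 2.3.3 and, for the plots, matplotlib 3.10.9. The 8391191 tags of the CTCF library and the 7988889 of the IgG library set the precision. Shares carry Wilson intervals, differences of shares Newcombe intervals and ratios exact conditional intervals, at 95%. Regions were tested by an exact binomial test at an adjusted p of 0.05. With 1 library per antibody no spread between replicates can be estimated. The motif matrix came from 192 sequences, with a pseudocount of 1 and a background of 0.29 (A, T) and 0.21 (C, G). Scripts were tested on simulated data.

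Pairs whose 5′ ends overlap (410) were left out of the main set. Named pairs were the 10 with the highest score among those with a summit, the 5 with the most CTCF tags without a peak, the 3 with the most IgG tags, the 3 with the lowest p for IgG over CTCF, the textbook pairs, those in the stretch around Ctcf and those at the 1000 bp limit. Pairs shown with their sequence and examples from gene lists were chosen after their values were seen, and pairs that differ only by a second model of a gene count separately. The members and gene lists were chosen with earlier results of these data known. Some pairs that these rules name are not reported here. Alternatives varied the peak threshold, the overlap, the scaling, the shift, the gap, the window, the comparison set and the motif settings.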

Additional observations from a re-analysis of the deposited data

How the results depend on the processing

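Of 61 alternative values over 11 results, 38 stayed within the interval of the main value (or, for counts, within 1.5 times, and for differences between classes on the same side of 0). These are single shares, ratios and counts, and the order of pairs and one-sided promoters turned in 2 comparisons given below. Restricting to peaks with a score of at least 100 gave 4.18% of pairs and 4.70% of one-sided promoters with a peak, and a ratio of 1.92 in pairs without one. Requiring a summit inside gave 4.06% and 5.76%. Scaling by tags outside peaks gave ratios of 2.49 in pairs, 1.98 in one-sided promoters and 2.0 in pairs without a peak. Including the pairs with overlapping 5′ ends gave 8.84% with a peak, above the 8.12% of one-sided promoters where the main share of 6.72% is below it, a ratio of 2.37 and 74 called pairs in place of 38. A fixed window of 1 kb gave a ratio of 1.81 in one-sided promoters. One-sided promoters with no other start within 5 kb had 7.50% with a peak and a ratio of 1.73. Only CpG-rich regions gave a ratio of 2.30 in pairs and 2.72 in one-sided promoters, the opposite order of the main 2.23 and 1.78, with a peak at 6.83% and 11.4%, and an IgG level in pairs of 0.981 times theirs. The share of summits with a motif was 71.9% at a motif p of 1e-04 and 25% within 50 bp. In alternatives chosen after seeing the data, the difference within CpG-rich promoters included 0 at a score of at least 100 (-1.90 points), and that within CpG-rich promoters with a motif did so at a score of at least 100 (-6.16), with a summit inside (-7.27) and with starts at most 300 bp apart (-7.93). Their causes were not tested, beyond the fewer peaks or pairs that these settings leave. No paired analysis was possible because each antibody has a single library, and for the same reason no replicate could be left out. At a median of 3 CTCF tags per pair, binding of a few times the background could not be detected at single pairs.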

Other observations

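The 410 pairs of protein-coding genes whose 5′ ends overlap by up to 1000 bp, so that the starts of both genes lie inside each other, were counted in the same way from 500 bp outside each start. Their median overlap was 344 bp and their median width 1344.5 bp, wider than the 1142 bp of the pairs with a gap, and 78.8% were CpG-rich. A peak overlapped 53 of them, or 12.9% (95% Wilson interval 10 to 16.5), against 6.72% (5.17 to 8.68) of the pairs with a gap. The summed tags were 2814 in the CTCF library and 1032 in the IgG library, a depth-scaled ratio of 2.60 (2.42 to 2.79). Without a peak the ratio was 1.84 (1.70 to 2.0), beside 1.80 (1.69 to 1.91) in the pairs with a gap. The part of the wider regions in the higher share was not tested.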
